A study of Homo sapiens with 40 samples.

Results

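HRG-treated BT474 cells at 12 h were compared with vehicle-treated BT474 cells of the same time point, with 2 libraries on each side, that is 4 of the 40 RNA-seq libraries of the study, and all genes of the count table were taken. BT474 is an established HER2-positive human breast cancer line that is sensitive to the HER2 antibody trastuzumab. The study set it beside BT474R, a single clone grown out of BT474 under trastuzumab, and exposed both to heregulin (HRG), to epidermal growth factor (EGF) or to vehicle for 1, 12 or 24 h. Cells of all groups, the controls included, were first starved for 14 to 16 h in medium with 0.1% serum and then received fresh starvation medium with 10 ng/mL HRG, 50 ng/mL EGF or water, and a T0 group was collected at the end of the starvation. Each group holds duplicate libraries, nothing in the labels says that they came from separate cultures, and the p-values below therefore measure the spread between these libraries, which may be technical.

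HRG, the product of the NRG1 gene, binds the receptors ERBB3 and ERBB4, whereas EGF binds EGFR. ERBB2 (HER2) has no known ligand and signals as the partner of the other receptors. The pair of ERBB2 and ERBB3 is known as a strong activator of the PI3K-AKT pathway, which retains FOXO transcription factors outside the nucleus, and of the RAS-ERK pathway, which induces ETS-family and early response transcription factors and its own inhibitors.

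The 4 libraries held 23578846 to 28933375 counts, and the 50 highest genes took 14.30% to 15.04% of them. ERBB2 stood at 8098 and 8268 CPM (counts scaled to a common library total) with vehicle and 7619 and 7669.6 with HRG, and the 8 markers of luminal breast epithelium examined summed to between 14637 and 15919 CPM. Fibroblast, endothelial and leukocyte markers were at or near 0 apart from COL1A1, VWF and CD68, with PDGFRB at 0 in all 4 libraries; the fibroblast list, nearly all of it COL1A1, summed to 97.2 to 104.2 CPM with vehicle and 74.8 to 76.8 CPM with HRG. CPM values of single genes are scaled by the trimmed mean of M-values (TMM), whereas the sums over marker lists are scaled by the library total alone. The 2 scales are therefore not the same. Fold changes are log2 ratios of HRG to vehicle with their standard error (±) from edgeR's quasi-likelihood fit, and n is 2 libraries per group. Genes with a Benjamini-Hochberg adjusted p under 0.05 over all genes tested are called higher or lower.

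HRG changed a large share of the measured transcriptome, mostly by small amounts. Of 25146 genes tested, 3332 (13.3%) were higher and 3150 (12.5%) lower, 25.8% in all. Called genes changed by a median of 0.36 in absolute log2 terms, 66.2% of them lay within 0.5 of 0, and the median over all genes tested was -0.02. A rise of at least 1 on the log2 scale was called for 363 genes and a fall of that size for 451, of which 104 and 129 reached 2. Both HRG libraries lay above both vehicle libraries for 28.1% of all genes tested and below them for 32.3%.

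The 12 genes with the largest called rises, among those with a mean of at least 1 CPM and separated groups, were AQP3, MUC2, MAGEC1, KRT17, ACTG2, KRT16, GAL, GSDMA, AREG, H19, L1CAM and ALDH1A3. AQP3, a water and glycerol channel of epithelia, was measured at 1.35 and 1.54 CPM in the vehicle libraries and 19.98 and 19.2 CPM in the HRG libraries, a 13.6-fold rise (log2 3.76 ± 0.16, adjusted p = 3.43e-20). Its HRG libraries lay far above both vehicle libraries. KRT17 and KRT16, keratins of stressed and stratifying epithelia, went from 0.710 and 0.499 to 8.43 and 5.67 CPM and from 0.816 and 0.749 to 5.95 and 6.84 CPM, respectively (log2 3.50 ± 0.26 and 3.02 ± 0.23, adjusted p = 1.05e-13 and 2.33e-13). AREG, which encodes the EGFR ligand amphiregulin, was at 3.51 and 3.08 CPM with vehicle and 22.2 and 24.1 CPM with HRG (log2 2.81 ± 0.12, adjusted p = 1.87e-20).

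The remaining rises came from genes of different kinds. H19, an imprinted long non-coding RNA, went from 5.39 and 4.24 to 35.1 and 30.7 CPM (log2 2.75 ± 0.21), and L1CAM, an adhesion molecule of the nervous system, from 2.45 and 2.87 to 16.3 and 17.4 CPM (log2 2.67 ± 0.14). ALDH1A3, which makes retinoic acid, was measured at 2.66 and 2.62 CPM and then 14.6 and 16.5 CPM (log2 2.56 ± 0.14). Separated groups were a condition of the choice of these genes. The AP-1 letters TGACTCA, read on both strands, were in 0 of 10 RefSeq promoter windows of 9 of the 12 genes, beside 4.95% of all windows. So few windows cannot show whether the letters are rarer or more frequent in these genes. The others were scarce without the ligand: the neuropeptide gene GAL rose from 0.284 and 0.541 to 3.13 and 3.26 CPM, the smooth muscle actin ACTG2 from 0.284 and 0.166 to 2.22 and 2.05, the cancer-testis antigen MAGEC1 from 0.106 and 0.250 to 2.35 and 1.88, the gasdermin GSDMA from 0.426 and 0.125 to 1.78 and 2.55, and the intestinal mucin MUC2 from 0.355 and 0.125 to 2.82 and 3.58. MAGEC1 and GSDMA rested on 3 and 6 and on 12 and 3 vehicle counts, and their log2 fold changes moved from 3.56 to 4.23 without vehicle replicate 2 and from 2.91 to 4.08 without vehicle replicate 1. The count table splits MUC2 over copies of its name, which makes its level uncertain; with copies summed its log2 fold change was 4.26, and it was 4.63 without vehicle replicate 1.

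**Figure D1:**
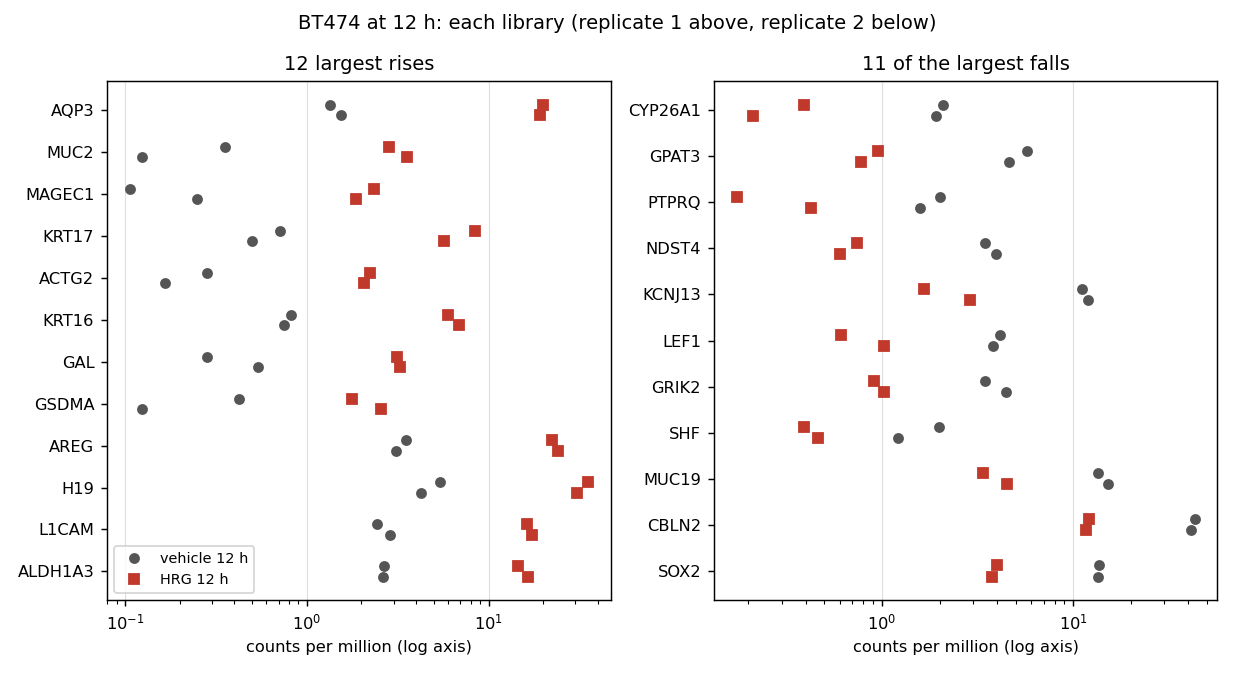
Level of the 12 genes with the largest called rises (left) and 11 of those with the largest falls (right) in BT474 at 12 h, in CPM on a log axis, 1 point per library (grey circles vehicle, red squares HRG, replicate 1 above replicate 2). Every gene was required to have separated groups; AQP3 lies at 1.35 and 1.54 with vehicle against 19.98 and 19.2 with HRG, and CBLN2 at 43.2 and 41.2 against 12.1 and 11.7.

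Of the largest falls 11 are described, those of CYP26A1, GPAT3, PTPRQ, NDST4, KCNJ13, LEF1, GRIK2, SHF, MUC19, CBLN2 and SOX2. CYP26A1, which breaks down retinoic acid, went from 2.09 and 1.91 CPM to 0.391 and 0.213 CPM (log2 -2.75 ± 0.35, adjusted p = 5.53e-08). LEF1, a transcription factor of the WNT pathway, went from 4.15 and 3.83 to 0.608 and 1.03 CPM (log2 -2.25 ± 0.24, adjusted p = 1.73e-09). SOX2, a transcription factor of stem cells, was lower in both HRG libraries as well, at 3.997 and 3.75 CPM against 13.6 and 13.5 CPM (log2 -1.81 ± 0.12, adjusted p = 7.95e-15).

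Several of these genes are best known from neurons or ion transport. The synaptic organizer CBLN2 was the most abundant and fell from 43.2 and 41.2 to 12.1 and 11.7 CPM (log2 -1.83 ± 0.08), the potassium channel KCNJ13 from 11.1 and 12.0 to 1.65 and 2.90 CPM (log2 -2.30 ± 0.16), and the glutamate receptor subunit GRIK2 from 3.48 and 4.45 to 0.912 and 1.03 CPM (log2 -2.01 ± 0.22). GPAT3, an acyltransferase of triglyceride synthesis, fell from 5.71 and 4.62 to 0.956 and 0.779 CPM (log2 -2.59 ± 0.21). Separated groups were again a condition of the choice. NDST4, MUC19, SHF and PTPRQ fell by between 1.84 and 2.52 on the log2 scale. The counts of PTPRQ were 57 and 38 with vehicle and 4 and 12 with HRG, and its value was -3.34 without HRG replicate 2.

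Ranked by the difference in mean CPM instead, the rises were those of abundant genes of the cytoskeleton, of lipid synthesis and of glycolysis. KRT8 and KRT19, keratins of luminal cells, rose from 1531 and 1581 to 2608 and 2687 CPM and from 1565 and 1582 to 2348 and 2319.8 CPM (log2 0.77 ± 0.03 and 0.57 ± 0.03). The actin gene ACTB rose from 4201 and 4346 to 5782 and 5811 CPM and the actin crosslinker FLNA from 1862 and 1956 to 2940.0 and 2927 CPM (log2 0.44 ± 0.03 and 0.62 ± 0.03). The lipogenic enzymes SCD and FASN and the glycolytic enzyme GAPDH rose by 0.57, 0.33 and 0.38 on the log2 scale. The drug and bile salt exporter ABCC3 changed most among the 8, from 438 and 453 to 1246 and 1197 CPM (log2 1.45 ± 0.05, adjusted p = 6.98e-24).

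The falls of this ranking included IGFBP5, a secreted binding protein of insulin-like growth factors, at 7498 and 7301 CPM with vehicle and 4587 and 4525 CPM with HRG (log2 -0.70 ± 0.04, adjusted p = 3.72e-16). The progesterone receptor gene PGR fell from 644 and 638 to 279 and 309 CPM (log2 -1.12 ± 0.05, adjusted p = 3.9e-19). MLLT6, ORMDL3 and MAGED2 fell by 0.25, 0.40 and 0.59. The mitochondrial ribosomal RNA genes RNR2 and RNR1 were also called, but by 1 library: RNR2 stood at 30957 and 31067 CPM with vehicle and 29471 and 22950.0 CPM with HRG, and without HRG replicate 2 neither call held (adjusted p = 0.388 for RNR2 and 0.073 for RNR1).

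The 4 ERBB receptor genes were all called, EGFR higher and the others lower, beside 25.8% of all genes called in either direction. ERBB4 fell most, from 40.7 and 39.3 CPM to 16.03 and 15.9 CPM (log2 -1.33 ± 0.08, adjusted p = 1.78e-16), with the groups well apart. ERBB3, the receptor of HRG that pairs with HER2, fell from 287 and 293 to 219 and 222 CPM (log2 -0.39 ± 0.04, adjusted p = 9.21e-11), and EGFR rose from 95.6 and 93.3 to 124 and 119 CPM (log2 0.36 ± 0.06, adjusted p = 2.05e-05). ERBB2 was lower by a small amount, with a log2 fold change of -0.10 ± 0.02 (adjusted p = 0.00242), and its call did not hold without HRG replicate 1 (adjusted p = 0.056), without vehicle replicate 2 (0.057) or with both lines in 1 fit (0.22).

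Of 11 ligand genes 10 were tested, and 1 was called lower, beside 12.5% of all genes. Against 13.3% of all genes called higher, 4 of the 10 rose. Beside AREG these were EPGN, at 0.248 and 0.333 CPM and then 1.04 and 1.52 CPM (log2 2.16 ± 0.36, adjusted p = 9.3e-06), BTC, at 3.58 and 2.54 and then 6.60 and 5.95 CPM (log2 1.02 ± 0.17, adjusted p = 7.95e-06), and EREG, with 2 and 2 counts against 8 and 11 (adjusted p = 0.0144). All 4 encode ligands of EGFR, and betacellulin (BTC) and epiregulin (EREG) bind ERBB4 too. The EREG call was lost without any of 3 of the 4 libraries. NRG3, a ligand of ERBB4, was called lower at log2 -0.47 ± 0.18 (adjusted p = 0.0455), a call that no left-out library kept. TGFA (0.24 ± 0.10), HBEGF (0.63 ± 0.48), NRG2 (1.43 ± 0.80), NRG4 (0.36 ± 0.43) and EGF (-0.36 ± 0.16) did not pass the threshold, and NRG1 itself held 0 counts in all 4 libraries and was not tested.

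Inhibitors that the ERK pathway induces rose with HRG, while suppressors of cytokine signalling fell. Of 21 genes in this list 9 were higher and 2 lower, beside the 13.3% and 12.5% of all genes, with a median log2 fold change of 0.17. DUSP6, the phosphatase of ERK, went from 42.5 and 39.9 CPM to 141 and 136 CPM (log2 1.75 ± 0.05, adjusted p = 2.47e-24), and SPRY4 from 16.1 and 14.6 to 43.1 and 42.4 CPM (log2 1.47 ± 0.09, adjusted p = 1.94e-16). DUSP4, SPRY1, ERRFI1, DUSP5, SPRED1, SPRED2 and DUSP8 rose by between 0.35 and 1.01. SOCS2 and SOCS3 fell by 1.71 and 1.40, and SOCS2 went from 18.3 and 19.1 to 6.04 and 5.38 CPM.

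**Figure D2:**
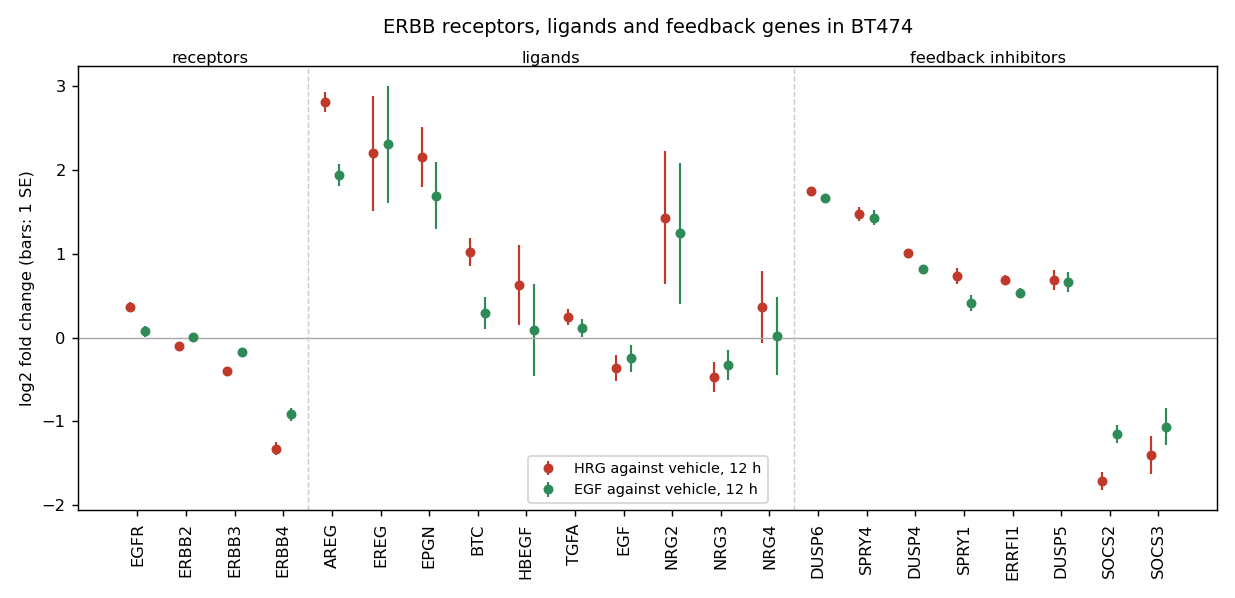
Log2 fold change of ERBB receptor, ligand and feedback genes after 12 h of HRG (red) or EGF (green), each against the same 2 vehicle libraries of BT474, with bars of 1 SE. ERBB4 is at -1.33 with HRG and -0.92 with EGF, AREG at 2.81 and 1.94, and the wide bars of EREG and NRG2 go with counts of 11 or fewer in each vehicle and HRG library.

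Of 30 transcription factors induced by growth factors 12 were higher and 3 lower at 12 h, beside 13.3% and 12.5% of all genes. The median was 0.12. The ETS factors ETV1, ETV4 and ETV5 rose by 1.57, 1.46 and 1.31, with ETV4 at 10.2 and 10.7 CPM and then 28.5 and 28.8 CPM. EGR3 rose from 0.745 and 0.790 to 3.35 and 2.52 CPM (log2 1.91 ± 0.28, adjusted p = 1.28e-06). The immediate early gene EGR1 was lower instead, at 16.2 and 12.0 CPM against 34.8 and 34.6 CPM (log2 -1.31 ± 0.08, adjusted p = 3.33e-15), as were FOS and FOSL2. MYC rose by 0.26 ± 0.06.

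Genes of DNA replication and mitosis rose nearly as a block. Of the 35 replication genes 34 were called higher and none lower, with a median of 0.52 and a highest value of 0.80, and POLD1 (0.14 ± 0.06) missed the threshold. Of the 34 mitotic genes 31 were higher and none lower, with a median of 0.31. Over all genes tested, 13.3% were called higher and 12.5% lower. MCM10 and CDC6, which load and start the replicative helicase, went from 38.1 and 35.4 to 63.3 and 64.5 CPM and from 56.6 and 52.0 to 94.5 and 92.9 CPM (log2 0.80 ± 0.06 and 0.78 ± 0.05, adjusted p = 4.71e-14 and 3.24e-14). ANLN, which acts in cytokinesis, went from 137 and 135 to 217 and 217 CPM (log2 0.68 ± 0.04), and the HRG libraries of all 3 lay above both vehicle libraries, as in 28.1% of all genes.

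Regulators of G1 were divided, with 9 of 21 higher and 5 lower (median 0.16), beside 13.3% and 12.5% of all genes. The cyclin gene CCND1 rose from 582 and 604 to 959 and 953 CPM (log2 0.69 ± 0.04, adjusted p = 1.28e-16). CDKN1A, which encodes the inhibitor p21, rose more on the log2 scale, from 7.77 and 6.74 to 20.9 and 17.1 CPM (log2 1.37 ± 0.11, adjusted p = 8.17e-13). The pocket protein gene RBL2 fell from 129 and 131 to 84.8 and 78.0 CPM (log2 -0.68 ± 0.05). The CDKN1C fall (-0.86 ± 0.31) was lost without any 1 of the 4 libraries.

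E2F factors are known to drive replication genes through sites with the core TTGGCGC. These letters, read on both strands, were in 12 of 40 RefSeq promoter windows of 300 bases that matched 32 of the replication genes (30.0%), beside 3.04% of all 35116 windows and 3.90% of the windows of tested genes. Of the called genes with the motif before the annotated start, stretches of the 3 that rose most are printed 5′ to 3′ on the strand of the gene, from RefSeq GRCh38.p14, with the motif in capitals; they lie at chr3:48188427-48188487 (CDC25A, minus strand), chr2:135876561-135876621 (MCM6, minus) and chr1:52404424-52404472 (ORC1, minus), and the motif starts 43, 151 and 22 bases before the annotated start of transcription. CDC25A activates cyclin-dependent kinases, MCM6 is a helicase subunit and ORC1 belongs to the origin recognition complex; they rose by 0.68, 0.66 and 0.64.
CDC25A: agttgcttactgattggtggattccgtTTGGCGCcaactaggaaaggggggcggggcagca
MCM6: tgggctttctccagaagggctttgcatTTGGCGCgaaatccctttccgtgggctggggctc
ORC1: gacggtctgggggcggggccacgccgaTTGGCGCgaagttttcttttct

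Most ribosome biogenesis genes rose, and ribosomal protein genes were higher by at most 0.27. Of 45 genes for ribosomal RNA synthesis and processing 32 were higher and none lower (median 0.26, highest value 0.62), and of 40 cytosolic ribosomal protein genes 16 were higher and none lower, with a median of 0.09. The shares of all genes were 13.3% higher and 12.5% lower. The RNA helicase DDX21 went from 196 and 191 CPM to 290.0 and 303 CPM (log2 0.62 ± 0.04, adjusted p = 2.48e-14), and the box C/D snoRNP protein NOP58 from 74.7 and 71.8 to 102 and 103 CPM (log2 0.48 ± 0.05, adjusted p = 2e-10). The ribosomal protein count ranged from 10 without vehicle replicate 2 to 27 with only the libraries compared.

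The E-box CACGTG, which MYC and related factors bind and which reads the same on both strands, was in 19 of 50 promoter windows of 39 biogenesis genes (38.0%), beside 7.26% of all windows and 8.60% of those of tested genes. The motif was searched without regard to other motifs that may overlap it. The matched stretches of the 3 called genes with the largest rises among those with the motif before the start lie at chr10:68956589-68956646 (DDX21, plus strand), chr4:4290053-4290112 (LYAR, minus) and chr16:69132606-69132648 (UTP4, plus) of GRCh38.p14, with the motif in capitals starting 31, 64 and 16 bases before the start. LYAR, a nucleolar protein, and UTP4, a subunit of the small subunit processome, rose by 0.55 and 0.50.
DDX21: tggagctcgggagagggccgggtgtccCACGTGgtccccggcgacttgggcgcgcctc
LYAR: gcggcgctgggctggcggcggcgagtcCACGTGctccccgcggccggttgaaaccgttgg
UTP4: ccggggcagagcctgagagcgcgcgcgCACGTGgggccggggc

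Genes for protein synthesis and folding rose in part. Of 20 cytosolic tRNA synthetases 13 were higher (highest FARSB, 0.49 ± 0.05) and QARS1 alone was lower (-0.43 ± 0.05). Cytosolic and mitochondrial chaperones counted 19 of 26 higher and 2 lower, the latter the heat shock genes HSPA1A and HSPA1B, with the chaperonin subunits CCT6A and CCT5 both at 0.44. Proteasome subunits showed 12 of 31 higher and none lower, with no rise above 0.26. Chaperones of the endoplasmic reticulum and the unfolded protein response gave 7 of 22 higher and 3 lower, beside 13.3% and 12.5% of all genes.

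Amino acid transporters were higher in 9 of 23 cases and lower in 3, beside 13.3% and 12.5% of all genes. SLC7A5, the large neutral amino acid transporter, rose from 164 and 162 to 266 and 274 CPM (log2 0.73 ± 0.06, adjusted p = 2.2e-13). Among 23 genes of the integrated stress response, the programme of the factor ATF4, 10 were higher and 3 lower. GDF15, a stress-induced cytokine, rose from 0.603 and 0.499 to 2.91 and 2.44 CPM (log2 2.25 ± 0.28, adjusted p = 4.45e-08), whereas the cysteine-forming enzyme CTH fell by 0.63, a call lost without HRG replicate 1 or vehicle replicate 2. The ATF4 site letters TGATGCA were in 3 of 32 promoter windows of this list (9.38%), beside 2.63% of all windows.

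Enzymes that build lipids and nucleotides were mostly higher. Of all genes, 13.3% were called higher and 12.5% lower. In the list of sterol synthesis and uptake 20 of 25 rose and none fell (median 0.38). MVD and FDPS, enzymes of the mevalonate pathway, went from 127 and 139 to 233 and 217 CPM and from 124 and 128 to 213 and 213 CPM (log2 0.76 ± 0.06 and 0.75 ± 0.05, adjusted p = 1.67e-13 and 2.49e-15). Fatty acid and glycerolipid synthesis gave 13 of 24 higher and 3 lower, with ELOVL6 and ACSS2 at 0.69 and 0.67 and GPAT3 at -2.59. Of 26 genes of nucleotide and one-carbon synthesis 19 were higher and none lower, and RRM2, a subunit of ribonucleotide reductase, rose from 125 and 117 to 209 and 218 CPM (log2 0.82 ± 0.05, adjusted p = 1.12e-16).

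Hypoxia-inducible factor targets outside glycolysis rose in 12 of 19 cases and fell in 2 (median 0.42). The angiogenic factor VEGFA went from 103 and 102 to 186 and 162 CPM (log2 0.77 ± 0.06) and the prolyl hydroxylase EGLN3 from 77.9 and 78.2 to 193 and 186 CPM (log2 1.28 ± 0.08), both with separated groups, and CA9 held 3 and 4 counts with vehicle and 24 and 22 with HRG. Nuclear genes of oxidative phosphorylation hardly moved: 9 of 48 were higher and 5 lower, beside 13.3% and 12.5% of all genes. All lay within -0.28 and 0.28, and the median was 0.02. Without vehicle replicate 1 the number higher was 3.

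FOXO factors and their known targets were mainly lower. Of 20 genes 12 fell and 4 rose, with a median of -0.37, beside 12.5% lower and 13.3% higher of all genes. KLHL24 went from 73.6 and 71.1 CPM to 27.8 and 29.6 CPM (log2 -1.33 ± 0.07, adjusted p = 1.73e-18), FOXO4 itself from 9.23 and 7.65 to 4.17 and 3.97 CPM (log2 -1.06 ± 0.15, adjusted p = 2.84e-07), and SESN3 from 12.1 and 12.8 to 6.39 and 6.48 CPM (log2 -0.95 ± 0.11, adjusted p = 4.21e-09). Both HRG libraries lay below both vehicle libraries for each, as in 32.3% of all genes. FOXO1 and FOXO3 fell by 0.71 and 0.42, and the 4 rises were those of FOXO6 (0.86 ± 0.12), CDKN1B and the insulin receptor substrates IRS1 (0.73 ± 0.06) and IRS2 (0.59 ± 0.21). The IRS2 call was lost without any of 3 of the 4 libraries, and that of FOXO1 without HRG replicate 2. The FOXO core GTAAACA was in 4 of 30 promoter windows of the list (13.3%), beside 3.42% of all windows.

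Lysosome and autophagy genes fell in 12 of 28 cases and CTSD alone rose, beside 12.5% lower and 13.3% higher of all genes. The median was -0.11, and with both lines in 1 fit 7 members were lower. GABARAPL1, a component of autophagosomes, fell from 23.4 and 20.05 to 10.5 and 10.5 CPM (log2 -1.05 ± 0.12, adjusted p = 2.72e-09). In the BCL2 family 3 of 16 were higher and 4 lower, beside 13.3% and 12.5% of all genes. The pro-apoptotic members BMF and BBC3 fell by 1.10 and 0.66, BMF from 42.9 and 42.4 to 20.4 and 19.6 CPM. Of other pro-apoptotic members, BIK fell too and BAK1 rose.

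**Figure D3:**
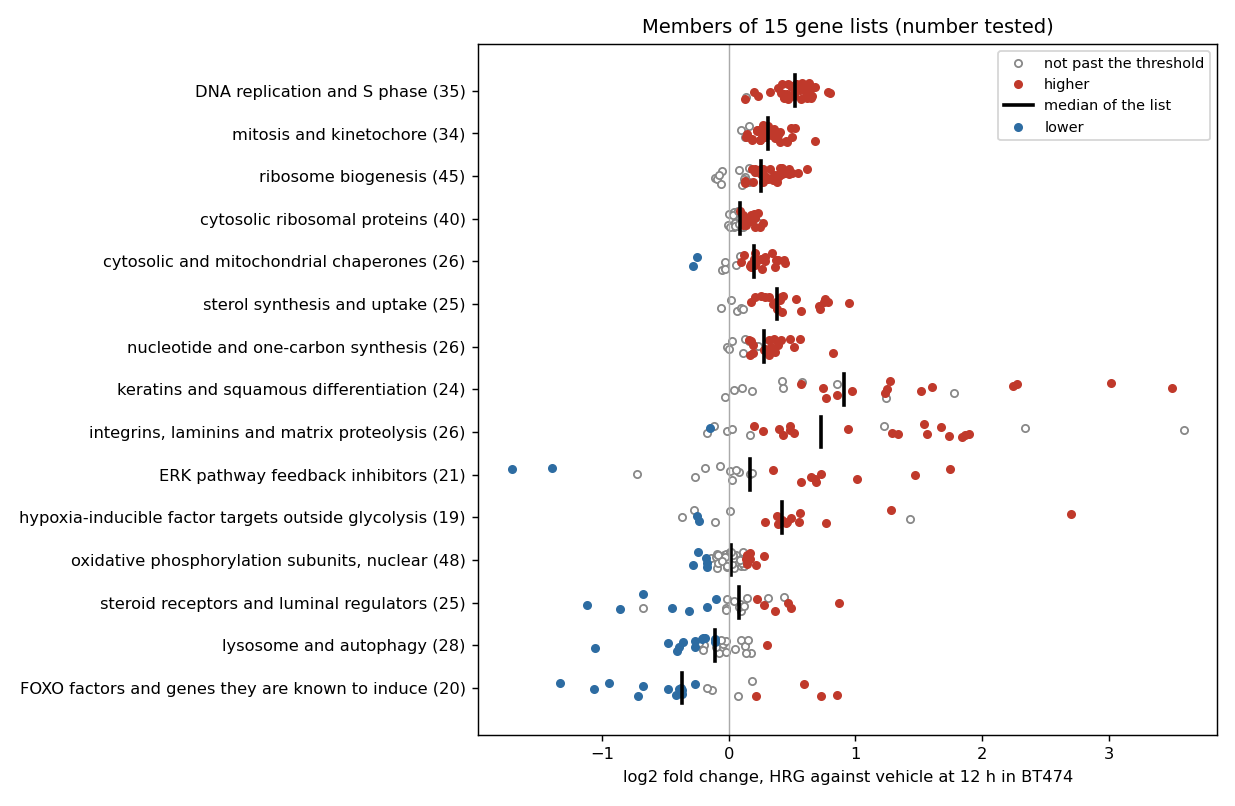
Log2 fold change (HRG against vehicle at 12 h in BT474) of every tested member of 15 gene lists, with the number tested in brackets; filled red and blue points passed the adjusted p threshold as higher and lower, open points did not, and black bars are medians. The medians run from 0.91 for keratins and squamous differentiation to -0.37 for FOXO factors and their targets, and 34 of 35 replication genes are filled red.

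Keratins and genes of squamous differentiation rose in 14 of 24 cases with no fall, and their median of 0.91 was the highest of the 34 lists. Among all genes tested, 13.3% were called higher and 12.5% lower. KRT80 and KRT18 went from 40.8 and 45.4 to 132 and 129 CPM and from 654 and 659 to 1186 and 1188 CPM (log2 1.60 ± 0.05 and 0.85 ± 0.04). KRT5 and SPRR1A, of basal and cornifying cells, rested on 2 and 3 and 2 and 4 vehicle counts against 10 and 15 and 13 and 16, and the SPRR1A call was lost without vehicle replicate 1 and the KRT5 call without any of 3 of the 4 libraries. The 5 basal or myoepithelial markers summed to 6.04 to 7.80 CPM with vehicle and 18.02 and 18.01 CPM with HRG: KRT5, TP63 (4.76 and 3.24 CPM against 9.43 and 8.57 CPM) and OXTR (2.77 and 2.50 CPM against 8.60 and 9.25 CPM) were higher, KRT14 and ACTA2 held at most 3 counts in each library. The part of such cells in the keratin values was not tested, and more cells of a kind and more RNA per cell cannot be told apart in bulk RNA. Without vehicle replicate 1 the count of higher keratin and squamous genes was 9.

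Mucins gave 4 of 9 tested higher and 1 lower, beside 13.3% and 12.5% of all genes. MUC5B, a gel-forming airway mucin, rose from 24.1 and 24.2 to 62.8 and 76.9 CPM (log2 1.53 ± 0.13, adjusted p = 4.12e-12), and MUC5AC, whose reads may also fall on copies of its name, from 0.781 and 0.957 to 3.39 and 5.53 CPM (log2 2.38 ± 0.26), while the membrane mucin MUC1 fell from 99.4 and 101.2 to 80.2 and 75.5 CPM (log2 -0.37 ± 0.07).

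Integrins, laminins and genes of matrix proteolysis rose in 17 of 26 tested cases and fell in 1 (ITGAV), with a median of 0.73. The shares of calls over all genes were 13.3% higher and 12.5% lower. The integrin subunit ITGB6 went from 41.0 and 36.8 CPM to 141 and 143 CPM (log2 1.87 ± 0.06, adjusted p = 1.54e-23) and the protease inhibitor TIMP1 from 3.51 and 2.75 to 11.0 and 11.7 CPM (log2 1.84 ± 0.13, adjusted p = 9.46e-14). The urokinase gene PLAU and the fibronectin receptor subunit ITGA5 were scarcer, with 0.319 and 0.333 against 0.999 and 1.42 CPM and 0.284 and 0.666 against 1.87 and 1.28 CPM. The HRG libraries lay above the vehicle libraries for all 4, as in 28.1% of all genes; the ITGA5 value rose from 1.74 to 2.43 without vehicle replicate 2.

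Adhesion genes were called in both directions, beside 13.3% higher and 12.5% lower of all genes. Nothing particular to the adhesion list is read from its counts. In the list of adhesion and mesenchymal transition, with 22 tested genes, 5 were higher, with EPCAM the largest at 0.28 ± 0.04, and 4 lower: TJP1, CDH2 (-0.69 ± 0.09), TWIST1 (-1.37 ± 0.11) and ZEB1, whose counts were 9 and 12 against 3 and 3 and whose call was lost without any 1 of the 4 libraries. TWIST1 went from 14.4 and 15.3 to 5.26 and 6.13 CPM (adjusted p = 7.56e-13). The E-cadherin gene CDH1 was at 0.04 ± 0.03 (adjusted p = 0.448). Actin cytoskeleton genes and targets of SRF and YAP-TEAD rose in 12 of 22 cases, with TAGLN2 higher by 0.96 and TPM1 higher by 0.46. The 2 that fell were TAGLN (-0.75 ± 0.19) and CCN1, and the TAGLN call was lost without HRG replicate 2.

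Steroid receptors and luminal regulators were split, 6 of 25 higher and 7 lower, beside 13.3% and 12.5% of all genes. Beside PGR, the estrogen receptor gene ESR1 fell from 119 and 116 CPM to 64.9 and 65.1 CPM (log2 -0.86 ± 0.05, adjusted p = 5.26e-16) and GREB1, one of its targets, from 233 and 233 to 145 and 146 CPM (log2 -0.68 ± 0.05, adjusted p = 2.49e-13). GATA3 fell by 0.45. AGR2, a disulfide isomerase of secretory cells, rose from 348 and 343 to 629 and 636 CPM (log2 0.87 ± 0.04, adjusted p = 4.27e-21). The HRG and vehicle libraries did not overlap for any of these genes; over all genes this held for 28.1% above and 32.3% below.

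Other signalling lists held changes in single genes, and their counts stand beside the 13.3% higher and 12.5% lower of all genes, from which nothing particular to a list is read. Of 26 TGF-beta, BMP and ID genes 9 were higher and 2 lower, with BMP7 at 210.4 and 209.8 CPM and then 425 and 439.9 CPM (log2 1.04 ± 0.04), TGFB3 at 0.50 ± 0.05 and BMP4 at -0.96 ± 0.16. WNT and Notch genes gave 5 of 27 higher and 5 lower, led by LEF1, by the Notch target HEY2 (-1.31 ± 0.12) and by the WNT antagonist DKK1, which went from 10.8 and 10.8 to 26.2 and 27.3 CPM (log2 1.31 ± 0.08). In the retinoic acid pathway 5 of 20 were higher and 4 lower, and the synthesizing enzymes ALDH1A3 and ALDH1A1 went opposite ways, ALDH1A1 from 8.62 and 8.32 to 3.91 and 4.04 CPM (log2 -1.09 ± 0.13). Interferon response genes were called in 5 of 29 cases, OAS3 higher and MX2, IRF2, TAP1 and STAT2 lower, of which STAT2 was lowest (log2 -0.69 ± 0.05) and the TAP1 call was lost without any of 3 of the 4 libraries. NF-kB factors and cytokines gave 2 of 20 higher and 2 lower, and the cytokine gene LIF had 1 and 1 counts with vehicle and 17 and 22 with HRG (adjusted p = 9.4e-06).

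HRG and EGF at 12 h were compared directly to ask whether the ligand mattered; their doses differed (10 and 50 ng/mL), and their changes against vehicle share the vehicle libraries. There were 306 genes higher (1.22%) and 239 lower (0.95%) with HRG than with EGF, 2.17% in all, and 83.9% of them lay within 0.5 of 0 on the log2 scale. EGF against vehicle called 2273 genes higher (9.04%) and 1757 lower (6.99%). For KRT17 the EGF libraries stood at 2.02 and 2.22 CPM and the HRG libraries at 8.43 and 5.67 CPM (log2 of HRG over EGF 1.72 ± 0.21, adjusted p = 1.14e-06), for L1CAM at 7.001 and 6.91 against 16.3 and 17.4 CPM (1.28 ± 0.12, adjusted p = 3.33e-09), and for AREG at 12.3 and 13.2 against 22.2 and 24.1 CPM (0.87 ± 0.10, adjusted p = 1.84e-07). ACTG2 and SPDYE5 were also among the 4 largest differences upward, at 1.37 ± 0.31 and 1.22 ± 0.23, and the ACTG2 call was lost without any 1 of the 4 HRG and EGF libraries.

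Lower with HRG than with EGF were THBS3-AS1 (-1.39 ± 0.31), HOXB6 (-1.15 ± 0.29), GPAT3 (-1.12 ± 0.26) and IGSF21, which stood at 4.71 and 4.34 CPM with EGF and 2.00 and 2.27 CPM with HRG (-1.08 ± 0.18, adjusted p = 1.57e-04). The calls of HOXB6 (any 1 of the 4 libraries), GPAT3 (3 of the 4), and SPDYE5 and THBS3-AS1 (2 of the 4) were also lost when libraries were left out. THBS3-AS1 lies antisense to a gene, and its reads cannot be told from those of the other strand because the strand setting of the counting is not given in the sources used here. The ERBB receptors all differed, EGFR higher with HRG (0.29 ± 0.06) and ERBB4 (-0.41 ± 0.09), ERBB3 (-0.22 ± 0.04) and ERBB2 (-0.11 ± 0.02) lower. Keratins were higher with HRG in 9 of 24 cases, mitotic genes in 7 of 34 and actin and SRF genes in 7 of 22, and 4 of 20 FOXO genes were lower, among them FOXO4 (-0.61 ± 0.16). Of all genes tested, 1.22% were higher with HRG than with EGF and 0.95% lower. Among the 12 rises, AQP3 was measured at 16.3 and 16.3 CPM with EGF and 19.98 and 19.2 CPM with HRG, a difference of 0.26 ± 0.11 that did not pass the threshold (adjusted p = 0.307); the same held for MUC2, MAGEC1, GAL and GSDMA.

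The change at 12 h was set beside that at 24 h, each against the vehicle libraries of its own time. HRG against vehicle called 3155 genes higher (12.5%) and 2907 lower (11.6%) at 24 h, and 544 higher (2.16%) and 152 lower (0.604%) at 1 h. The change at 24 h differed from that at 12 h for 628 genes (2.5%), upward for 192 (0.764%) and downward for 436 (1.73%). AREG was already high at 1 h (log2 3.04 ± 0.11) and stayed so at 24 h (2.603 ± 0.13), and KRT17 and ACTG2 were up at 1 h by 2.01 ± 0.36 and 2.55 ± 0.47. The other 9 rises were not called at 1 h, and of the 11 falls only MUC19 was (-0.56 ± 0.15, adjusted p = 0.028).

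Of the 4 largest gains after 12 h, PTGS1 and DHRS3 reversed their change and CDH5 and GDF15 extended it. PTGS1, the constitutive cyclooxygenase, was lower with HRG at 12 h (0.999 and 0.815 against 2.13 and 2.33 CPM) and higher at 24 h (7.54 and 5.67 against 1.12 and 1.94 CPM), a difference of 3.39 ± 0.32 (adjusted p = 3.63e-09). DHRS3, which reduces retinal, did the same, with log2 fold changes of -0.66 ± 0.20 and then 2.06 ± 0.17. GDF15 and the cadherin CDH5 rose at 12 h and further at 24 h, by 2.50 ± 0.56 and 2.85 ± 0.80 (adjusted p = 0.00537 and 0.043). The CDH5 difference was lost without any of 6 of the 8 libraries, and that of GDF15 without vehicle 12 h replicate 1 or vehicle 24 h replicate 2.

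Other rises were smaller at 24 h, no longer called or, for STK32B, called lower. EFEMP1 and STK32B were higher at 12 h (log2 1.61 ± 0.18 and 1.359 ± 0.14) but at 24 h stood at -0.19 ± 0.22 and -0.53 ± 0.17. L1CAM went from 2.67 ± 0.14 to 0.87 ± 0.18 (adjusted p of the difference 3.72e-06), ALDH1A3 from 2.56 ± 0.14 to 1.38 ± 0.15, both still called higher at 24 h, and GSDMA from 2.91 ± 0.38 to -0.10 ± 0.61. The GSDMA difference (adjusted p = 0.0208) was lost without HRG 12 h replicate 2, vehicle 12 h replicate 2 or vehicle 24 h replicate 1. CYP1A2 and UGT1A6, which shares its last exons with other UGT1A genes, were the other 2 of the 4 largest downward differences (-1.92 ± 0.25 and -1.95 ± 0.54), and the latter was lost without any of 5 of the 8 libraries. In the lists, replication genes had a smaller change at 24 h in 9 of 35 cases (MCM6 0.66 ± 0.04 and then 0.18 ± 0.04), integrins and matrix genes in 7 of 26, and keratins in 5 of 24, while among the falls CBLN2 deepened from -1.83 ± 0.08 to -2.74 ± 0.09. Over all genes tested, the change was lower at 24 h than at 12 h for 1.73% and higher for 0.764%.

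**Figure D4:**
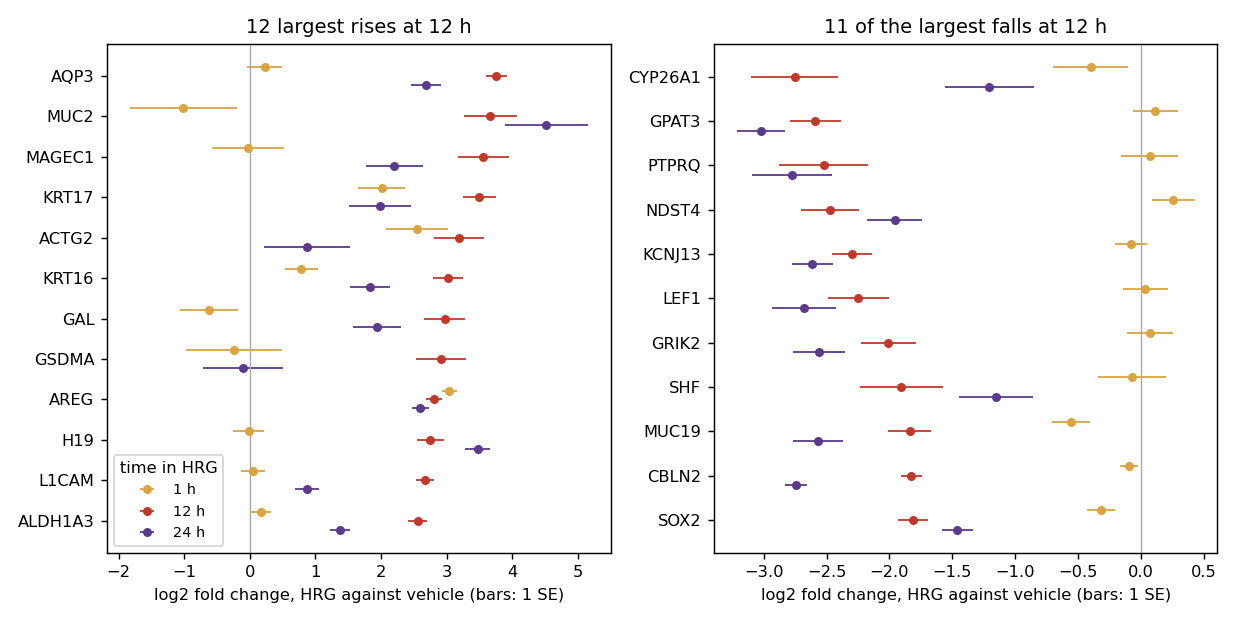
Log2 fold change of HRG over vehicle after 1 h (yellow), 12 h (red) and 24 h (purple) in BT474 for the 12 genes with the largest rises and 11 of those with the largest falls at 12 h, with bars of 1 SE. AREG stands at 3.04, 2.81 and 2.603 at the 3 times, whereas GSDMA is at -0.24, 2.91 and -0.10; the genes were picked at 12 h, so a smaller value at another time is partly built into the choice.

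The same treatment in BT474R called 579 genes higher (2.38%) and 421 lower (1.73%), 4.12% in all. The change in BT474R minus that in BT474 differed from 0 for 1003 of 24641 genes tested (4.07%), upward for 287 (1.16%) and downward for 716 (2.91%). AQP3 was at 19.3 and 22.5 CPM in BT474R with vehicle and 74.2 and 67.6 CPM with HRG, and its change differed from that in BT474 by -2.02 ± 0.30 (adjusted p = 3.7e-05). GAL was at 0.00 ± 0.29 in BT474R (adjusted p = 0.997) and at 2.97 ± 0.31 in BT474 (difference -2.98 ± 0.45, adjusted p = 3.7e-05). H19 was already at 2223 and 2771 CPM in BT474R without ligand, against 5.39 and 4.24 CPM in BT474, and its rise was smaller there by -1.90 ± 0.31 (adjusted p = 1.24e-04). ALDH1A3 rose by 0.73 ± 0.10 in BT474R, less than in BT474 (adjusted p of the difference 2.66e-08).

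Of the falls, GPAT3, LEF1, SHF, CBLN2 and SOX2 were smaller in BT474R, with differences from 0.76 to 1.90, and BEND5 and BTN3A3, which fell in BT474 by -1.86 ± 0.45 and -1.61 ± 0.21, gave the largest upward differences (2.33 ± 0.54 and 2.15 ± 0.44). The differences of LEF1, SHF, SOX2, GPAT3, BEND5 and BTN3A3 were each lost without at least 1 of the 8 libraries. Since the 23 genes were picked by the size of their change in BT474, a smaller change in BT474R is partly built into the choice. The gene lists were chosen by pathway, with earlier results of these data known. Among them replication genes had a lower change in BT474R in 11 of 35 cases, chaperones in 8 of 26, nucleotide synthesis genes in 8 of 26, ribosome biogenesis genes in 7 of 45 and amino acid transporters in 6 of 23, with no member of these lists higher. FOXO genes went the other way in 6 of 20 cases, KLHL24 at -0.45 ± 0.07 against -1.33 ± 0.07 in BT474, and FOXO6 alone had a lower change. Over all genes tested, 2.91% had a lower change in BT474R and 1.16% a higher one. MYC rose more in BT474R, by 1.21 ± 0.19 against 0.26 ± 0.06 (difference 0.94 ± 0.18, adjusted p = 0.00101).

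**Figure D5:**
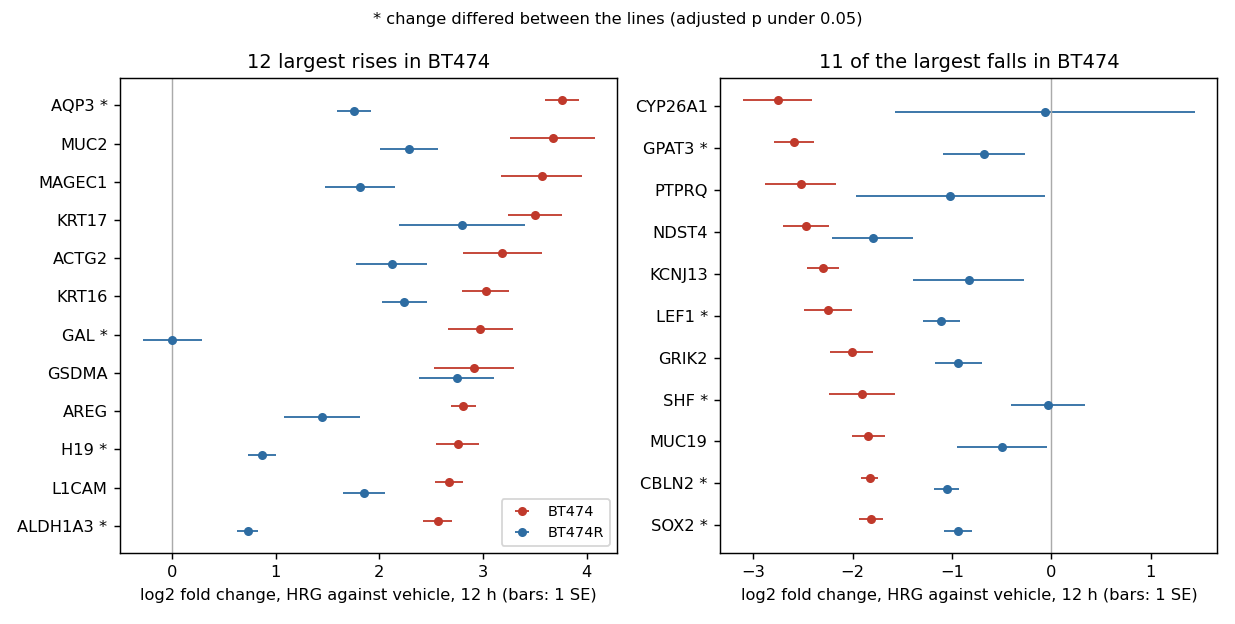
Log2 fold change of HRG over vehicle at 12 h in BT474 (red) and BT474R (blue) for the 12 genes with the largest rises and 11 of those with the largest falls in BT474, with bars of 1 SE; an asterisk marks genes whose change differed between the lines at an adjusted p under 0.05. All 23 values in BT474R lie nearer to 0 than those in BT474, 9 of them with an asterisk, and the genes were picked by their size in BT474.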

How the data were processed

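RNA was measured in BT474 and BT474R cells by poly(A)-selected RNA-seq with duplicate libraries per group. Per the labels and the study's methods, the authors trimmed reads with TrimGalore 0.6.6, aligned them to GRCh38.p13 with Rsubread 2.6.4 and deposited raw read counts per gene from featureCounts; the annotation release, strand setting and treatment of multi-mapping reads are not given in the sources used here. The table held 44584 names, of which 9125 had no count in any library and 5078 were copies of a repeated name (2.96% of counts); copies were kept apart, so their genes are uncertain.

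The counts were fitted with edgeR 4.0.16 in R 4.3.3 (TMM, quasi-likelihood F test) over the 20 BT474 libraries, keeping genes that had a count in 10 or more of them. The change in BT474R minus BT474 was fitted over all 40 libraries (a count in 20 or more). P-values were adjusted by Benjamini-Hochberg over all genes tested. CPM of single genes are TMM-scaled, whereas the marker sums and the CPM that 3 counts correspond to are scaled by the library total alone. The standard error is the absolute log2 fold change over the square root of F. Each library counted as 1 sample. Both 12 h pairs varied more than counting noise (median chi-square of 0.676 for vehicle and 0.733 for HRG against 0.455 for noise). That excess does not show that the libraries came from separate cultures. In 1 simulation of the HRG contrast at 12 h on 24789 genes, 175 of 200 changed genes were called, with 13 false calls. The shares were 70.1%, 92.5% and 100% for log2 changes of 0.5, 1 and 2. The changed genes were drawn only from those with a mean of at least 1 CPM, so these shares do not cover scarcer genes. Only these 200 genes were changed and the groups otherwise shared 1 mean, whereas 25.8% of genes tested were called in the data. The shares and the false calls may therefore differ in the data.

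Named genes were the 12 per direction with the largest log2 fold change and the 8 per direction with the largest difference in CPM, among called genes with a mean of at least 1 CPM and groups that did not overlap (LOC, LINC, MIR and copy names left out), the 4 called members of each list with the largest change, all ERBB receptors and ligands, and 4 per direction in the other comparisons; a few genes that met the rule are not reported here. Further list members (such as MYC, FOS, GATA3, KRT18, KRT80, IRS1 and IRS2), and the marker genes TP63 and OXTR, were named after their values were seen. Members and the 34 lists (833 genes) were chosen with earlier results of these data known. Alternatives were DESeq2 1.42.0, its size factors, filterByExpr, no filter, only the libraries compared, a replicate block, both lines in 1 fit, equal depth, summed copies, and each library left out. Promoter windows run from 250 bases before to 50 after each RefSeq start.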

Additional observations from a re-analysis of the deposited data

Results flagged for a closer look

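The change after 24 h of HRG in BT474 differed from that after 12 h by edgeR's test of the difference itself for 12 genes among the largest changes at 12 h and the 4 largest differences per direction, on the log2 scale and with 4 groups of n = 2 libraries. The 24 h change was higher for PTGS1 (3.39 ± 0.32, adjusted p = 3.63e-09), CDH5 (2.85 ± 0.80, adjusted p = 0.043), DHRS3 (2.72 ± 0.27, adjusted p = 9.40e-09) and GDF15 (2.50 ± 0.56, adjusted p = 0.00537). It was lower for UGT1A6 (-1.95 ± 0.54, adjusted p = 0.0402), CYP1A2 (-1.92 ± 0.25, adjusted p = 2.22e-06), STK32B (-1.89 ± 0.23, adjusted p = 4.68e-07), EFEMP1 (-1.80 ± 0.28, adjusted p = 5.78e-05), GSDMA (-3.02 ± 0.77, adjusted p = 0.0208), L1CAM (-1.80 ± 0.24, adjusted p = 3.72e-06), ALDH1A3 (-1.18 ± 0.22, adjusted p = 7.76e-04) and CBLN2 (-0.92 ± 0.13, adjusted p = 7.84e-06).

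The change after 12 h of HRG differed between BT474R and BT474 for 13 genes chosen in the same way, by the same kind of test; other named genes, such as MYC, also passed these tests and are not listed. It was higher in BT474R for BEND5 (2.33 ± 0.54, adjusted p = 0.00768), BTN3A3 (2.15 ± 0.44, adjusted p = 0.00219), GPAT3 (1.90 ± 0.45, adjusted p = 0.0099), THBS3-AS1 (1.84 ± 0.39, adjusted p = 0.00391), LEF1 (1.13 ± 0.33, adjusted p = 0.0404), SHF (1.86 ± 0.50, adjusted p = 0.0258), CBLN2 (0.76 ± 0.16, adjusted p = 0.00249) and SOX2 (0.86 ± 0.22, adjusted p = 0.0164). It was lower in BT474R for GAL (-2.98 ± 0.45, adjusted p = 3.70e-05), CTB-3M24.3 (-2.63 ± 0.71, adjusted p = 0.0265), AQP3 (-2.02 ± 0.30, adjusted p = 3.70e-05), H19 (-1.90 ± 0.31, adjusted p = 1.24e-04) and ALDH1A3 (-1.84 ± 0.18, adjusted p = 2.66e-08). Part of these genes were picked by the size of their change at 12 h in BT474, so a smaller change elsewhere is partly built into that choice. The CTB-3M24.3 call was lost without any of 6 of the 8 libraries.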

How the results depend on the processing

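Depth was 23578846 to 28933375 counts in the 4 libraries, where 3 counts correspond to 0.104 to 0.127 CPM, so a change in a gene below that level in both groups was not detectable. The 3332 and 3150 genes higher and lower with HRG at 12 h stayed within 1.5 times of these counts under all 9 alternatives (3003 to 4035 and 2241 to 3632), and left-out libraries gave 2504 to 2993 and 1984 to 2329, the least lower genes without HRG replicate 2. HRG against EGF gave 306 higher and 239 lower genes; these were 175 and 84 with both lines in 1 fit, 760 and 482 with only the libraries compared, 473 higher with no filter, and 97 to 206 and 53 to 137 with a library left out. The 24 h minus 12 h change gave 192 higher and 436 lower genes; these were 86 and 259 with both lines in 1 fit, 291 higher with no filter, and 107 to 295 and 265 to 414 with a library left out. BT474R minus BT474 gave 287 and 716; these were 703 and 1363 with only the libraries compared, 406 lower at equal depth, and 129 to 217 and 207 to 507 with a library left out. The cause of these moves was not tested. No count or named gene run under these alternatives changed direction.

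The replicate numbers did not pair the 12 h samples (r = -0.01 between deviations of same-numbered HRG and vehicle libraries), whereas at 24 h r was 0.30 for vehicle with HRG, 0.19 for HRG with EGF and 0.14 for vehicle with EGF; nothing in the labels says what a shared number stands for. With the replicate block the counts were 3413 higher and 3272 lower for HRG against vehicle, 362 and 278 for HRG against EGF, 222 and 469 for 24 h minus 12 h, and 330 and 793 for BT474R minus BT474.

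Of 188 named genes called with HRG at 12 h, 166 kept the call under all 9 alternatives and without each of the 4 libraries in turn, and 22 lost it in at least 1 of these, among them CA9, CDKN1C, CTH, CXCR4, ERBB2, EREG, FOXA1, FOXO1, IRS2, KRT5, MANF, NDUFA2, NFKBIA, NRG3, RNR1, RNR2, SPRR1A, TAGLN, TAP1, TCF7 and ZEB1.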
